A study of Mus musculus with 4 samples.

Results

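The pannexins and connexins described here are 7 genes, the pannexins Panx1, Panx2 and Panx3 and the connexins Gja1, Gja4, Gjb2 and Gjc1, of 24346 gene symbols in the expression table. They were chosen by symbol as the channel families to which Panx3 belongs, and Panx3 was chosen for its difference between siZBP1 and siScr cells, so the values of the 7 genes in that contrast are a description and were given no test. RNA-seq was carried out on mBMSCs, primary bone marrow stromal cells grown from the femurs of wild-type C57BL/6 mice (C57BL/6J in the methods) aged 3 months. The siScr group received scrambled siRNA and the siZBP1 group received siRNA against Zbp1, which encodes a sensor of Z-form nucleic acids. Both groups were transfected with a lipid reagent and collected 72 h later, with 2 samples each. The sources used here do not state whether the replicates came from separate cultures or animals, so that p-values measure only the spread between these samples, nor which of the study's siRNAs against Zbp1 was sequenced.

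Connexins form gap junctions, in which a ring of subunits in a cell docks to a ring in its neighbour and lets ions, nucleotides and other small molecules pass between the cells. Pannexins resemble connexins in their membrane topology but share little of their sequence, and they work mostly as single-membrane channels that release ATP to the outside. In bone, Gja1 is the main gap junction gene of osteoblasts and osteocytes, and Panx3 is expressed as osteoblasts and chondrocytes mature, where it has been linked to ATP release and to calcium release from the endoplasmic reticulum.

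Values are FPKM, in which fragment counts are scaled to transcript length and to the mapped total, which allows levels of genes of different length to be compared. Depth was not given with the values. The spacing of low values gave a rough 14.2 and 19.03 M fragments for siScr replicates 1 and 2, and 10.5 and 18.3 M fragments for siZBP1 replicates 1 and 2. The targeted gene, Zbp1, stood at 86.0 and 62.0 FPKM in the siScr samples and at 11.5 and 11.6 FPKM in the siZBP1 samples, a difference of -2.56 on the log2(FPKM + 1) scale by limma (standard error 0.16, adjusted p = 0.00322). Limma fits a linear model to each gene, and its adjusted p controls the false discovery rate over the 11959 genes with a mean of at least 1 FPKM. Over all these genes limma called 1766 lower and 1618 higher in siZBP1 cells. Calls rested on having both siZBP1 samples: without siZBP1 replicate 1 the counts were 23 and 22 and the limma adjusted p of Zbp1 was 0.0748, and without siZBP1 replicate 2 they were 38 and 22 with 0.0654. Leaving out siScr replicate 1 gave 760 lower and 518 higher, and leaving out siScr replicate 2 gave 1297 lower and 1019 higher. The cultures held more than stromal cells. Summed over each marker list, the mesenchymal stromal genes reached 412 to 502 FPKM in siScr and 315 to 319 FPKM in siZBP1 cells, and of 9 tested 4 fell and 1 rose. The osteoblast genes summed to 2824 to 3435 FPKM and 1184 to 1242 FPKM, and 5 of 5 tested fell, while the late osteocyte markers Sost and Mepe were at 0. Most of that sum was Col1a1, at 3066 and 2520 FPKM in siScr and 1128 and 1191 FPKM in siZBP1 cells. The ratio of the siScr to the siZBP1 mean was 2.41 for Col1a1 and 3.26 to 8.22 for Bglap, Bglap2, Ibsp and Alpl. The smooth muscle and pericyte genes summed to 1135 to 1160 FPKM and 179 to 207 FPKM, and 5 of 6 tested fell. The macrophage genes summed to 4660 to 5547 FPKM and 7629 to 8163 FPKM, and 5 of 8 tested rose. Endothelial genes summed to 10.7 to 10.8 FPKM and 10.7 to 10.9 FPKM with 0 of 2 called by limma (0 at an unadjusted p under 0.05), and chondrocyte genes to 6.13 to 10.4 FPKM and 4.76 to 4.97 FPKM with 1 of 3 called, which fell. That gene was Col2a1, at 5.41 and 2.50 FPKM in siScr and 0.0749 and 0.0827 FPKM in siZBP1 cells. Col10a1 went the other way, at 1.86 and 1.27 FPKM and at 2.82 and 2.50 FPKM (limma adjusted p = 0.0695), and Sox9 overlapped. The adipocyte genes summed to 332 to 352 FPKM and 379 to 405 FPKM, of which 1 of 3 tested rose and 1 fell, with Plin1 and Cfd at 0. The part of these shifts in the values below was not tested, and in bulk samples fewer cells of a type cannot be told apart from less RNA per cell.

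The sequences bearing on the members are shown first. Panx3, 4 exons on GRCm38 chr9:37659902-37669235 (minus strand), encodes 392 codons in its longest coding transcript and ends in a 3' UTR of 1172 bases. An siRNA can lower other transcripts that match its seed, guide bases 2 to 8, and such matches were searched in the longest coding transcript of each member in GENCODE M21 (GRCm38). The target of siZBP1-1 in the coding sequence of exon 3 of Zbp1 (chr2:173215780-173215798, minus strand) is shown with 3 windows that match it, in Panx3 (3' UTR, chr9:37660350-37660379, minus strand), Gja1 (coding sequence, chr10:56388555-56388584, plus strand) and Gjb5 (3' UTR, chr4:127354863-127354892, minus strand). Letters are those of the mRNA strand written as DNA, and capitals mark the seed match, which in the Gja1 and Gjb5 windows takes in the A that follows it (lower case in the Zbp1 target). In the Gja1 window the letters tgacga just before the capitals are also those of the Zbp1 target, so the match there runs well beyond the seed.
Zbp1 target of siZBP1-1: gggaatgacgaCAGCCAAa
Panx3 3' UTR: aaagcatactaCAGCCAAccagtgaaggtc
Gja1 coding sequence: ttccctgacgaCAGCCAAAatgccaaaaaa
Gjb5 3' UTR: ccagagttagcCAGCCAAAaaggccacgta
Panx3 was the 1 member with a seed match to siZBP1-1 in its 3' UTR, against 1297 of 10822 tested genes with a 3' UTR of at least 50 bases. Panx1 matched in its 5' UTR and Panx2 in its coding sequence, and no match was found in Gja4, Gjb2 or Gjc1. No member matched siZBP1-2, the other siRNA against Zbp1, in its 3' UTR. Gjb5, a connexin that is no member and was higher in siZBP1 cells, also holds the site. No other connexin outside the members was searched. The part of these sites in the values was not tested.

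RefSeq promoter sequence (GRCm38.p6) was found for 4 of 7 members, Panx1, Gja1, Gja4 and Gjb2. The 250 bases before the start were searched on both strands for the TCF/LEF letters CTTTGAA and CTTTGAT as well as CTTTGTA and CTTTGTT, the RUNX letters TGTGGT, and the AP-1 letters TGACTCA as well as TGAGTCA, none of which contains another. Of 32851 such windows, 4874 (14.8%) hold the TCF/LEF letters, 4614 the RUNX letters and 1466 (4.46%) the AP-1 letters. None of the 4 members held the TCF/LEF letters in this window. Panx1 and Gja1, the 2 of these with a mean of at least 1 FPKM, are printed because one was slightly higher and the other lower in siZBP1 cells, with motif matches in capitals.
Panx1, chr9:15045479-15045728, minus strand: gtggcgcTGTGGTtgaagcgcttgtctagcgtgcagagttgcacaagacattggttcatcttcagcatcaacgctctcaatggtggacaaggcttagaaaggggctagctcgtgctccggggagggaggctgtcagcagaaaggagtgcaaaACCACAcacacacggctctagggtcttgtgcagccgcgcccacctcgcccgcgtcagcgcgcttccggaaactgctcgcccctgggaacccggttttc
Gja1, chr10:56377050-56377299, plus strand: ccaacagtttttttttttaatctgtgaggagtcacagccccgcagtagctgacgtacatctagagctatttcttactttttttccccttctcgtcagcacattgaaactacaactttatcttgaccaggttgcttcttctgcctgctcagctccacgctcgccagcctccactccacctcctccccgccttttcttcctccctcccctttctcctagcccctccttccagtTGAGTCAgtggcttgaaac
Panx1 held 2 RUNX matches, starting 243 and 98 bases before its start, and Gja1 held 1 AP-1 match, starting 19 bases before it. Gja4 and Gjb2 held none of the 3 motifs. A match is a run of letters and was not tested as a binding site.

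Among the pannexins, Panx3 was high in siScr cells and near 0 in siZBP1 cells. It stood at 17.8 FPKM in siScr replicate 1 and 14.7 FPKM in siScr replicate 2, and at 0.269 and 0.396 FPKM in siZBP1 replicates 1 and 2. The groups did not overlap, and the means of 16.3 ± 2.19 FPKM and 0.333 ± 0.0895 FPKM (SD, n = 2 each) differed 48.9-fold. The siZBP1 values correspond to roughly 7.14 and 18.3 fragments, so the size of that fold rests on few fragments, and on the log2(FPKM + 1) scale the difference was -3.69.

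Panx1, the widely expressed ATP-release channel, was nearly level. It measured 7.25 and 7.46 FPKM in siScr cells and 8.13 and 7.80 FPKM in siZBP1 cells, with means of 7.35 ± 0.149 and 7.97 ± 0.229 FPKM (SD, n = 2 each). Both siZBP1 samples lay above both siScr samples, by 0.10 on the log2(FPKM + 1) scale. Panx2, a pannexin known mainly from the brain, was at the edge of detection, with 0.0163 and 0.0119 FPKM in siScr cells, about 1 fragment each, and was listed at 0 in both siZBP1 samples.

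The make-up of pannexin RNA was therefore not alike in the groups. Panx3 made up 71.0% and 66.3% of summed pannexin FPKM in the siScr samples and 3.21% and 4.83% in the siZBP1 samples. The ratio of Panx3 to Panx1 was 2.46 and 1.97 in siScr cells and 0.0331 and 0.0507 in siZBP1 cells. The sum of the pannexins was 25.1 and 22.2 FPKM against 8.40 and 8.20 FPKM, 2.85-fold lower in siZBP1 cells.

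**Figure D1:**
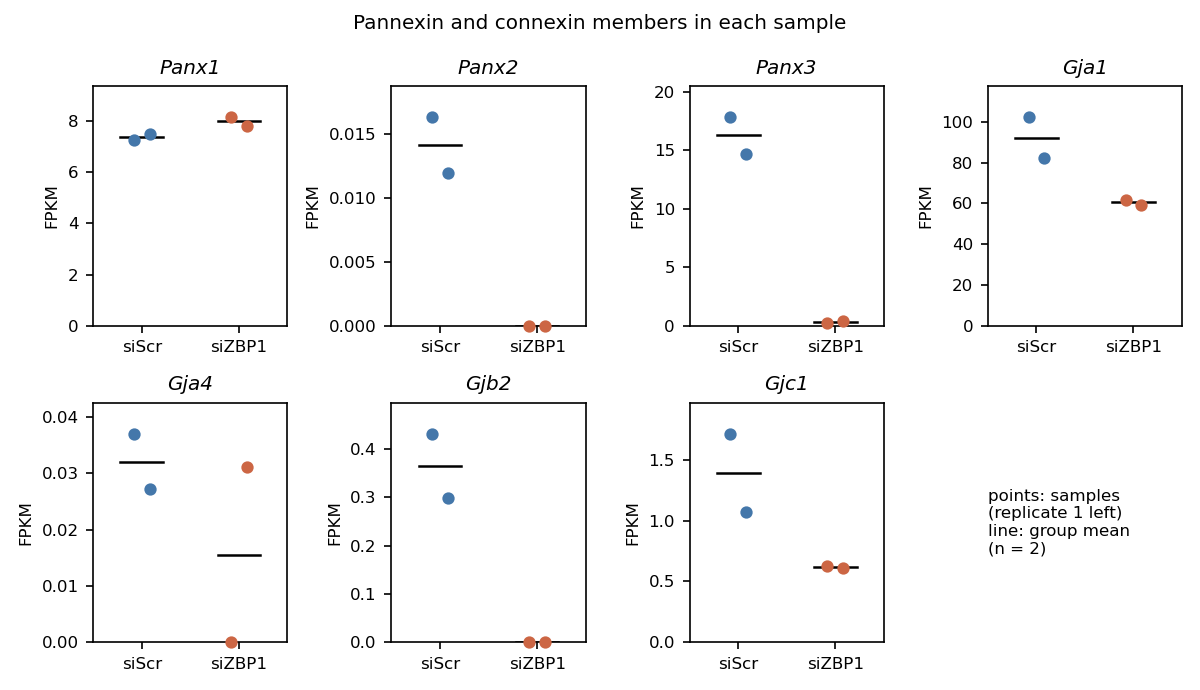
Each panel plots the FPKM (linear axis from 0) of 1 member in the siScr (blue) and siZBP1 (orange) samples, with a line at each group mean (n = 2). Panx3 lies at 14.7 to 17.8 FPKM in siScr and 0.269 to 0.396 FPKM in siZBP1 samples, Panx1 lies between 7.25 and 8.13 FPKM, and Gja4 is the 1 member whose groups overlap.

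Among the connexins, Gja1 was the most abundant in every sample. It measured 102 and 82.3 FPKM in siScr cells and 61.8 and 59.2 FPKM in siZBP1 cells. The groups did not overlap, with means of 92.3 ± 14.1 and 60.5 ± 1.83 FPKM (SD, n = 2 each), a 1.52-fold difference or -0.59 on the log2(FPKM + 1) scale. The siScr replicates themselves differed 1.24-fold.

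Gjc1, a connexin known from the heart conduction system and vessels that also forms junctions in osteoblasts, was far less abundant than Gja1. Its values were 1.71 and 1.07 FPKM in siScr cells and 0.626 and 0.612 FPKM in siZBP1 cells. The means of 1.39 ± 0.457 and 0.619 ± 0.00992 FPKM (SD, n = 2 each) differed 2.24-fold, beside a 1.61-fold difference between the siScr replicates. The siZBP1 values rest on roughly 15.2 and 25.9 fragments.

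The remaining connexins were scarce. Gjb2, a connexin of epithelia and the inner ear, was listed at 0.431 and 0.298 FPKM in siScr cells, roughly 14.8 and 13.6 fragments, and at 0 in both siZBP1 samples. The epithelial markers Krt5, Krt14 and Krt18 were at 0 in all samples, and the epithelial list summed to 0.156 to 0.167 FPKM in siScr and 0.0436 to 0.0992 FPKM in siZBP1 cells, with none tested. Gja4, a connexin of arterial endothelium, was listed at 0.0370 and 0.0271 FPKM in siScr cells and at 0 and 0.0312 FPKM in siZBP1 cells, 1 fragment or none, and its groups overlapped.

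Both families together gave 5 members whose siZBP1 samples lay below both siScr samples (Panx2, Panx3, Gja1, Gjb2 and Gjc1), 1 that lay above (Panx1) and 1 that overlapped (Gja4). Over the 17788 genes with any value above 0, the shares were 29.3% below and 29.0% above. Because the members were chosen for this contrast, nothing is read from their count. A mean of at least 1 FPKM was reached by 4 of 7 members, Panx1, Panx3, Gja1 and Gjc1, with Gjc1 at a mean of 1.00 FPKM just inside that limit.

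The order of the levels in siScr cells was Gja1, Panx3, Panx1, Gjc1, Gjb2, Gja4 and Panx2 in both samples, with no overlap between neighbours, although the lowest 2 rest on about 1 fragment. In siZBP1 cells the order was Gja1, Panx1, Gjc1 and Panx3, again without overlap, and Gja4, Gjb2 and Panx2 could not be ordered. Panx3 thus stood in the second place in siScr cells and in the fourth in siZBP1 cells. Gja1 was higher than 96.7% of all genes of the table in siScr cells and 94.7% in siZBP1 cells, whereas Panx3 was higher than 80.2% and 45.8%.

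**Figure D2:**
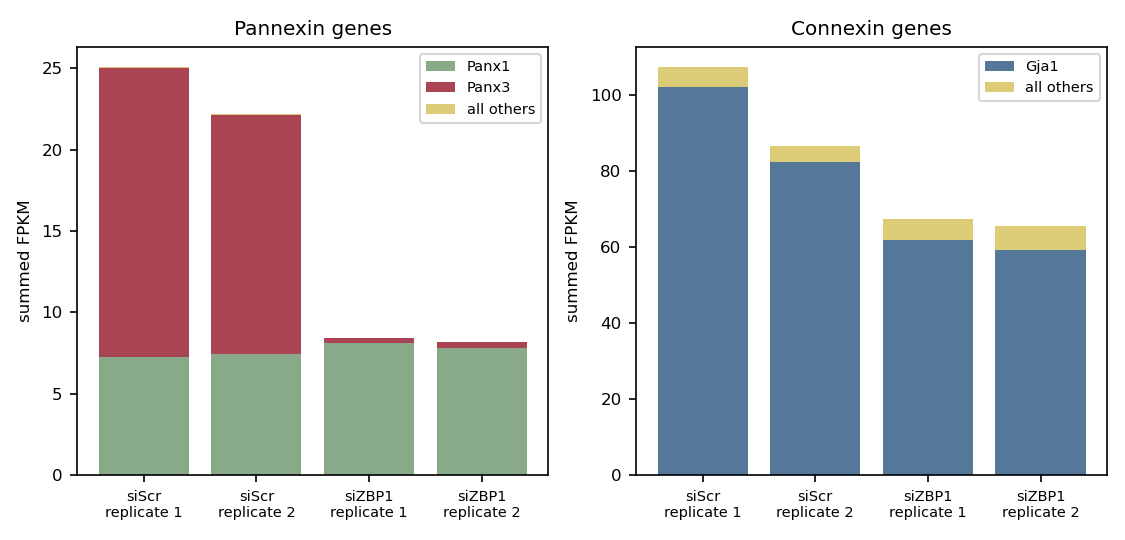
Stacked bars plot the summed FPKM of the pannexin genes (left) and of all connexin genes in the table (right) in each sample, starting at 0. Panx3 fills 66.3% to 71.0% of the pannexin bar in siScr and 3.21% to 4.83% in siZBP1 samples, while Gja1 fills 90.3% to 95.3% of the connexin bar.

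Zbp1 differed between the siScr samples, and Gjc1, Gja1 and Panx3 differed in the same direction while Panx1 did not. On the log2(FPKM + 1) scale, siScr replicate 1 exceeded replicate 2 by 0.47 for Zbp1, a difference higher than that of 98.4% of tested genes. The same difference was 0.39 for Gjc1, 0.31 for Gja1 and 0.26 for Panx3, higher than 97.6%, 95.7% and 93.7% of tested genes, and -0.04 for Panx1. The median of all tested genes was 0.02. Osteoblast transcription factors also stood higher in replicate 1 (6 of 7, median 0.24) and macrophage genes lower (1 of 8 higher, median -0.11). Higher too were the osteoblast (4 of 5, median 0.28), chondrocyte (3 of 3, 0.33) and mesenchymal stromal markers (7 of 9, 0.20). Smooth muscle and pericyte markers were level (3 of 6, 0.01), and endothelial (1 of 2, -0.07) and adipocyte markers (1 of 3, -0.10) were lower. This is 1 pair of libraries, given with no test, and what set the replicates apart was not tested.

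Among the other connexins, 3 lay higher in both siZBP1 samples than in both siScr samples. The 1 that lay lower in both averaged under 0.1 FPKM. Over the 17788 genes with any value above 0, the shares were 29.0% higher and 29.3% lower. The table held 16 other connexins, of which 5 were at 0 in all samples (Gja10, Gjb1, Gjb6, Gjd2 and Gjd4), 6 averaged under 0.1 FPKM and 5 reached that level. Of these, 1 averaged over 1 FPKM and was tested, Gjb5, a connexin of skin and placenta. It stood at 0.481 and 0.485 FPKM in siScr cells and 2.44 and 2.82 FPKM in siZBP1 cells, and it rose by 1.29 on the log2(FPKM + 1) scale by limma (standard error 0.13, adjusted p = 0.00616), a 5.44-fold ratio of means. Its siScr values, roughly 11.8 and 15.9 fragments, lay under 1 FPKM, so it passed the filter through the siZBP1 group. With no filter its limma adjusted p was 0.00849. Also over 0.1 FPKM were Gjc3, at 0.778 and 0.780 FPKM in siScr and 0.825 and 1.05 FPKM in siZBP1 cells, and Gje1, at 0.765 and 0.430 FPKM and at 0.301 and 0.439 FPKM. The groups of Gje1 overlapped. Summed connexin FPKM was 107 and 86.5 in siScr and 67.5 and 65.6 in siZBP1 cells, 1.46-fold lower, and Gja1 made up 90.3% to 95.3% of it.

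**Figure D3:**
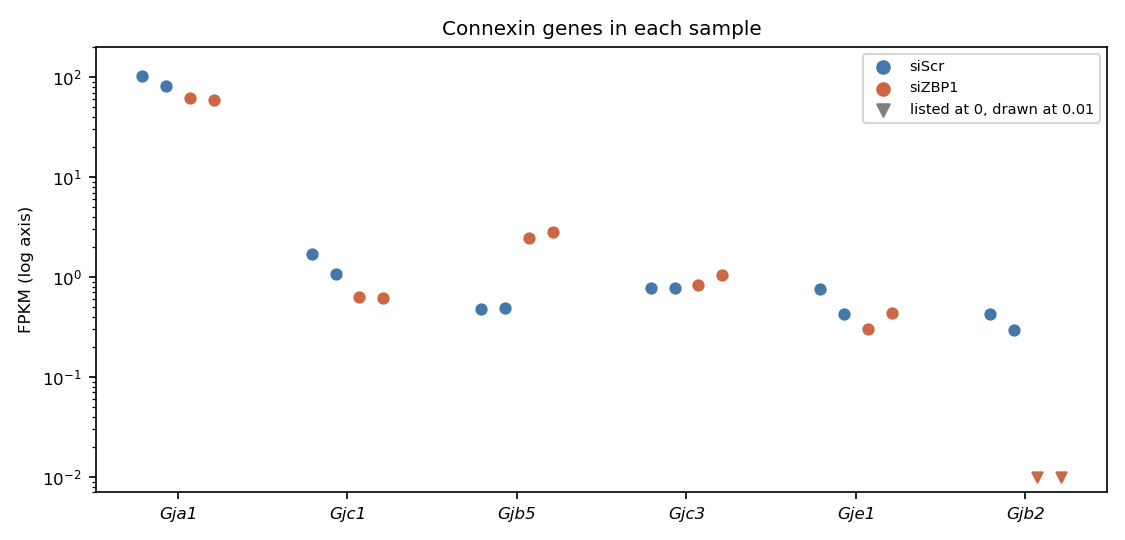
Points plot the FPKM of each sample on a log axis for connexin genes with a mean of at least 0.1 FPKM, siScr in blue and siZBP1 in orange. Gja1, Gjc1 and Gjb2 are lower in both siZBP1 samples (Gjb2 is listed at 0 there, drawn as triangles at 0.01) and Gjb5 and Gjc3 are higher.

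Among the genes next to Panx3 on chromosome 9, Siae was higher in both siZBP1 samples. Tbrg1, Spa17 and Olfr874 were lower in both, with Spa17 and Olfr874 under 1 FPKM in every sample. Siae, a sialic acid esterase, measured 10.8 and 11.6 FPKM in siScr and 13.2 and 12.7 FPKM in siZBP1 cells (limma difference 0.19, adjusted p = 0.0888). Tbrg1, the nearest by coordinates, measured 63.7 and 58.6 FPKM and 50.4 and 53.9 FPKM (limma difference -0.23, adjusted p = 0.0580). Spa17, a sperm protein gene under the test's limit, was listed at 0.695 and 0.650 FPKM in siScr and 0.140 and 0.0866 FPKM in siZBP1 cells. On the other side the olfactory receptor genes Olfr160 and Olfr151 were at 0, and Olfr874 was listed at 0.139 and 0.432 FPKM in siScr cells and at 0 in siZBP1 cells.

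The genes whose centred log2(FPKM + 1) values over the 4 samples lay nearest to Panx3 were Cnn1, Mir8112, Actg2, Npnt and Tnn, at Euclidean distances of 0.56, 0.60, 0.63, 0.75 and 0.77. Cnn1 and Actg2 encode smooth muscle contractile proteins, and Npnt and Tnn encode matrix proteins. Cnn1 measured 42.6 and 38.8 FPKM in siScr and 2.86 and 4.39 FPKM in siZBP1 cells. Nearest to Gja1 were Tgfbr3, Ehhadh, Syne3, C1ra and Il34, at 0.0093 to 0.050. Tgfbr3, a coreceptor for TGF-beta, measured 4.89 and 3.77 FPKM in siScr and 2.59 and 2.46 FPKM in siZBP1 cells. With 4 samples this likeness is set largely by the difference between groups.

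The other genes of the pathway were tested by limma, from lists chosen with earlier results of these data known. Of 106 listed genes 65 were tested, and 23 fell (35.4%) and 8 rose (12.3%), beside 14.8% and 13.5% of all tested genes. With either siZBP1 sample left out, 0 of the 65 fell and 0 rose, although 21 were lower and 8 to 11 higher at an unadjusted p under 0.05, and none of the 22 genes that the naming rule gave past the threshold, Zbp1 included, kept its call. Without siScr replicate 1, 12 fell and 7 rose. Dlx6 and Nov averaged under 1 FPKM in siZBP1 cells, so like Gjb5 they passed the filter through their higher group. With no filter their limma adjusted p were 0.0149 and 0.0274. All differences below are limma differences on the log2(FPKM + 1) scale with all 4 samples.

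Among other large-pore channels, 3 of 7 fell and 0 rose (0 higher at an unadjusted p under 0.05). Fam26e, a calcium homeostasis modulator channel, fell by 0.43 (adjusted p = 0.0302 by limma), and the volume-regulated anion channel subunits Lrrc8c and Lrrc8a fell by 0.35 and 0.33 (limma adjusted p = 0.0429 and 0.0263). The median difference of the list was -0.20, against 0.0045 for all genes. Without either siScr sample, 0 of these fell. With no filter on low values 1 of these fell, as Fam26e and Lrrc8c lost their calls (limma adjusted p = 0.0548 and 0.0774), and Lrrc8c also lost its call with a filter at 5 FPKM and after quantile normalization (limma adjusted p = 0.0580 and 0.0588).

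In the list of ATP and adenosine receptors, some of which sense the ATP that pannexins release, the genes that passed the test were higher. Its adenosine receptors (Adora1, Adora2a, Adora2b and Adora3) averaged under 1 FPKM and were not tested. Of 9 tested, 4 rose and 0 fell (0 lower at an unadjusted p under 0.05), with a median difference of 0.48. With no filter on low values, 5 of the list rose and 1 fell. P2rx5, under the test's limit and named after its values were seen, was lower in both siZBP1 samples. It stood at 1.09 and 0.967 FPKM in siScr and 0.425 and 0.176 FPKM in siZBP1 cells. P2ry13, an ADP receptor, stood at 1.61 and 2.74 FPKM in siScr and 7.25 and 7.10 FPKM in siZBP1 cells and rose by 1.39 (limma adjusted p = 0.0112). P2ry12, the ADP receptor of platelets and microglia, rose by 1.18 (limma adjusted p = 0.00463), and P2rx7, an ATP-gated channel of macrophages, by 0.62 (limma adjusted p = 0.0259). The other riser, P2ry6, a UDP receptor named after its values were seen, rose by 0.48 (limma adjusted p = 0.00585). The macrophage marker sum, most of it Lyz2, was higher in the same samples, as given above, and its part was not tested.

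Enzymes and transporters of extracellular nucleotides moved both ways, with 2 of 8 falling and 1 rising. Alpl, the alkaline phosphatase of bone, stood at 243 and 157 FPKM in siScr and 25.7 and 23.0 FPKM in siZBP1 cells and fell by 2.96 (limma adjusted p = 0.00388). Slc29a1, a nucleoside transporter, stood at 92.2 and 74.8 FPKM and at 30.8 and 35.6 FPKM and fell by 1.30 (limma adjusted p = 0.00589). Nt5e, which makes adenosine from AMP and is also a mesenchymal marker, stood at 2.73 and 5.48 FPKM and at 20.8 and 21.3 FPKM and rose by 2.16 (limma adjusted p = 0.00954). The median difference of the list was 0.01.

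Genes of calcium release and calcineurin-NFAT signalling changed little in size. Of 18 tested, 4 fell and 2 rose, and the median difference was -0.08. The calcium release channels Itpr3 and Itpr1 fell by 0.48 and 0.39, the transcription factor Nfatc3 by 0.30 and Atp2a2, a calcium pump named after its values were seen, by 0.30. Ppp3ca, a calcineurin subunit, and Calm3, a calmodulin, rose by 0.31 and 0.25. Without siScr replicate 1, 1 of these fell and 0 rose.

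Of 15 tested partners of gap junctions, 8 fell and 0 rose by limma (3 higher at an unadjusted p under 0.05), with a median difference of -0.25. Nov, a secreted matricellular protein that binds connexins, fell by 0.81, the catenin Ctnnd1 by 0.52 and Nedd4, a ubiquitin ligase of Gja1 protein, by 0.44. Without siScr replicate 1, 5 of these fell.

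Transcription factors of osteoblasts, which act upstream of several bone genes, fell in 6 of 7 tested cases, and 0 rose (0 higher at an unadjusted p under 0.05). Sp7, the osteoblast factor osterix, stood at 34.6 and 22.9 FPKM in siScr and 3.33 and 3.82 FPKM in siZBP1 cells and fell by 2.68 (limma adjusted p = 0.00401). The homeobox genes Dlx5 and Dlx6 fell by 1.39 and 1.16 (limma adjusted p = 0.0147 and 0.00983). The median difference of the list was -0.85.

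**Figure D4:**
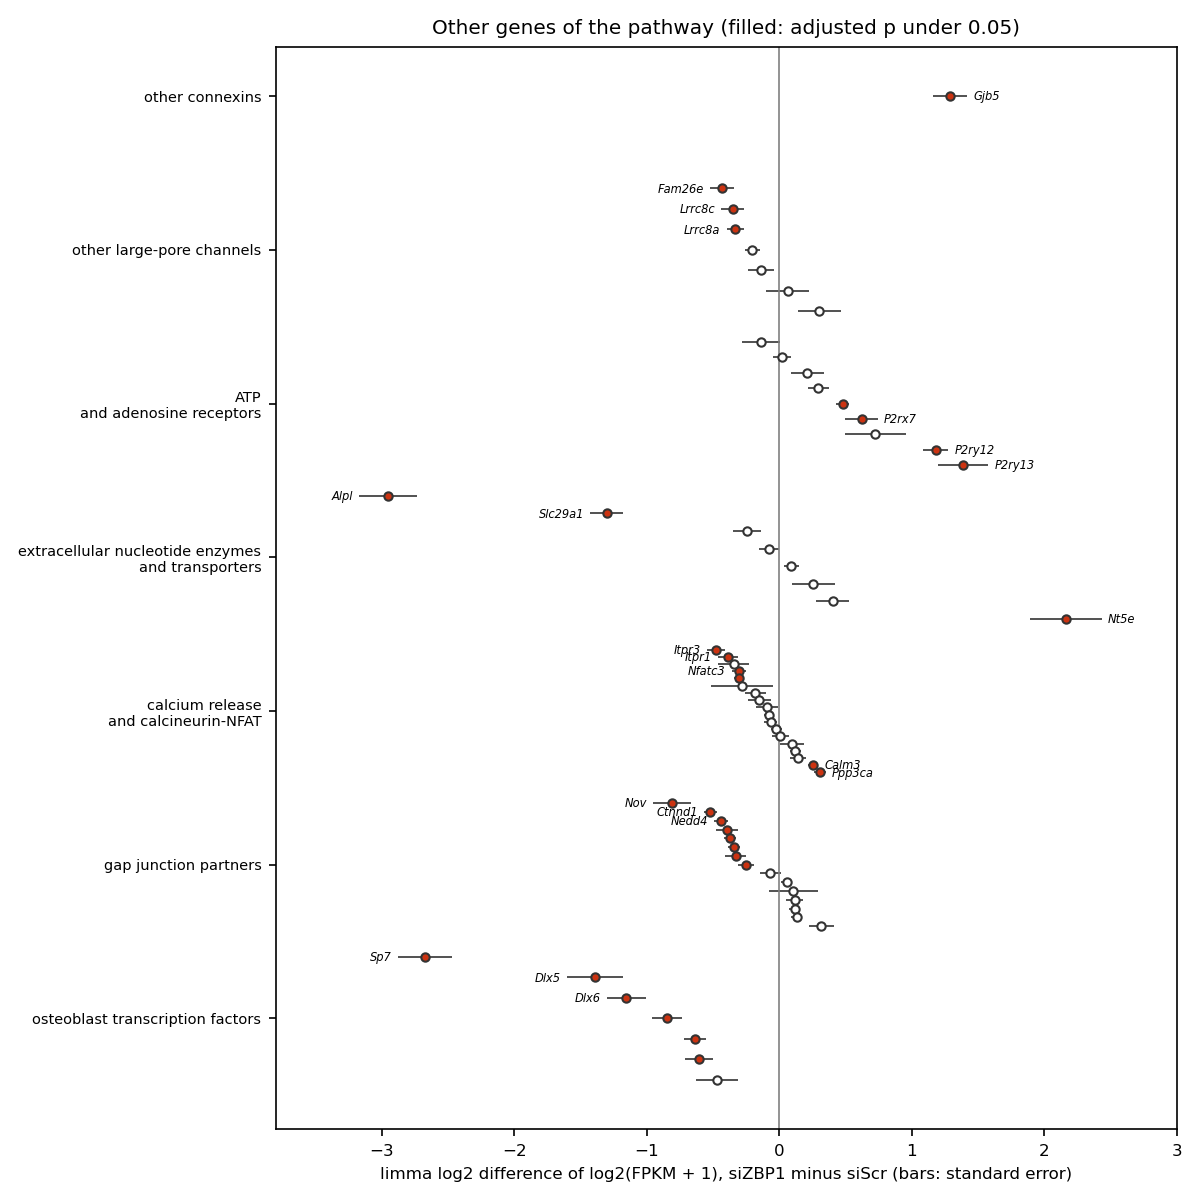
Points plot the limma difference in log2(FPKM + 1), siZBP1 minus siScr, of each tested gene of the 7 pathway lists, with its standard error, filled where the adjusted p was under 0.05. Osteoblast factors lie to the left of 0. Most tested genes of the ATP and adenosine receptor list lie to the right, none of them an adenosine receptor. Alpl (-2.96) and Nt5e (2.16) lie at opposite ends of the nucleotide list.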

How the data were processed

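RNA-seq of 4 samples, siScr and siZBP1 with 2 each, was used. The authors prepared TruSeq libraries, mapped reads with Tophat and deposited FPKM per gene symbol. Their methods name HTSeq for this step, and the submitters' processing notes list TopHat, Cufflinks and mm10. Annotation and filters are not given in the sources used here. The deposited group means equal the means of the replicates.

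FPKM were transformed as log2(FPKM + 1), and limma 3.58.1 under R 4.3.3, with its variance trend on, was fitted to the 11959 genes averaging at least 1 FPKM over all samples, and p-values were adjusted by Benjamini-Hochberg at 0.05. Differences of members are means of log2(FPKM + 1), with no p. Rough depth was read from the steps between low values in genes with a single transcript, and no counting interval was made from it. Gene positions and transcripts came from GENCODE M21 and promoters from RefSeq. Scripts used Python 3.11.15, numpy 2.4.6, pandas 2.3.3 and matplotlib 3.10.9, and the fit was tested on simulated data.

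The members, the 7 pathway lists and the 8 marker lists were chosen with earlier results of these data known. Named were all members, other connexins with a mean of at least 0.1 FPKM (some are not reported here), up to 3 called genes in each direction with the largest limma difference per pathway list, the 5 genes nearest in profile to Panx3 and to Gja1, the 3 neighbours of Panx3 on each side, and Zbp1. The 11 alternatives covered the pseudocount, the filter, the scaling, the variance trend, the replicate number as a block and leaving out each sample.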

Additional observations from a re-analysis of the deposited data

How the results depend on the processing

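The difference of Panx3 was -5.25 with a pseudocount of 0.1 and -3.50 after quantile normalization, and ran from -3.82 to -3.56 with 1 sample left out. No member's difference turned sign in 46 values, of which 36 moved by less than the replicate SD. With a mean of at least 5 FPKM only 3 members remained to be compared, and all 3 had groups that did not overlap. Leaving out 1 sample gave 6 to 7 such members of 7, since a group of 1 overlaps less easily.

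Over all genes, limma called 1766 lower and 1618 higher. With all samples kept, alternatives gave 1517 to 1841 lower and 1231 to 1812 higher. Leaving out 1 sample gave 23 to 1297 lower and 22 to 1019 higher, the lowest counts without a siZBP1 sample. For the pathway genes the counts of 23 and 8 became 0 to 18 and 0 to 8. These fits have fewer samples, and the lone sample was assumed to vary like the other group. Of the 22 genes past the threshold that the naming rule gave, 145 of 150 values with all samples and 33 of 44 without a siScr sample stayed past it, and none turned sign. Fam26e lost its call with no filter, and Lrrc8c with no filter, with the stricter filter, after quantile normalization and with the replicate block.

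Whether samples with the same replicate number share an origin is not stated in the sources used here. Deviations of samples with the same number had a correlation of -0.063 across 11959 genes, which does not settle it. With the replicate number as a block, limma called 1654 lower and 1465 higher over all genes and 21 and 9 among the pathway genes. Low depth limits Panx2, Gja4 and Gjb2, which rest on 0 to 14.8 fragments.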
